A study of Xenopus laevis with 8 samples.

Results

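The *hnf4* genes encode nuclear receptors, and they were taken here by name, as every gene identifier that begins with hnf4. There were 5 such entries among the 49086 genes listed: *hnf4g.L*, *hnf4g.S*, *hnf4b.L*, *hnf4b.S* and *hnf4a.S*. The suffixes .L and .S mark the homeologs on the long and short chromosome sets of *Xenopus laevis*, an allotetraploid frog. No listed identifier was named *hnf4a.L*, so that homeolog is not in the counts and shares below. Of the 5 genes, *hnf4g.L* was selected on the measured values themselves, for counts in mutant embryos far below those in control embryos. Its differences between genotypes are therefore given as a description and without a test. The other 4 genes were included by name alone.

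HNF4 receptors bind DNA as homodimers at direct repeats of a short motif, and fatty acids occupy their ligand pocket. In mammals, HNF4A is a central transcription factor of liver, pancreas and gut, where it acts with FOXA and GATA factors and controls genes of lipid, glucose and amino acid metabolism. HNF4G is found mainly in the mammalian intestine, kidney and pancreas. In *Xenopus*, HNF4 proteins are known as maternal components of the egg, and the beta form was first described in this animal.

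The embryos came from crosses of the inbred J strain. M/Z embryos came from eggs of homozygous *wnt11b* mutant females and mutant sperm, and carried a small frameshift deletion in *wnt11b.L* on both the maternal and the zygotic side. The +/Z embryos came from eggs of wild-type females and mutant sperm, so that all 4 groups shared the paternal mutant allele. Whole embryos were collected at stage 9 (late blastula) and stage 10.5 (gastrula), with 2 replicates in each group and 3 pooled embryos in each replicate. The mutant line goes back to 1 founder female, and the number of mothers behind each pool is not given in the sources used here. The M/Z embryos were homozygous for the deletion and the +/Z embryos heterozygous. Maternal genotype, zygotic genotype and the mother itself cannot be told apart in this design, and the p-values measure the spread between pools.

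Library totals were 24720921 to 37265579 counts, and the M/Z libraries were 1.25 times as deep as the +/Z libraries. Levels are given as counts and as CPM, counts per 1000000 counts of the TMM-scaled library size. A count of 3 in a library, taken as the floor, corresponded to between 0.0715 and 0.136 CPM. Where all libraries of a group had 0 counts, a bound on the fold change was set at 3 counts over the group. Genes with a few counts in a group kept their fitted fold change. Intervals on counts cover counting error only. Replicates differed by more than counting error in every group. *wnt11b.L*, the mutated gene, differed by −0.05 log2 units between the genotypes at stage 9 (adjusted p = 0.92) and by −0.47 at stage 10.5 (adjusted p = 0.197, edgeR's quasi-likelihood test). Its deletion is too small to be read from gene counts, so these values do not check the labels. The 14 entries of embryo stage genes were homeologs of *vegt*, *gdf1*, *gs17*, *gsc*, *chrd*, *sox17a*, *sox17b.1* and *mixer*. Their summed level at stage 9 was 680 and 742 CPM in the M/Z libraries, against 1022 and 954 CPM in the +/Z libraries. Most of this sum was *vegt.L* and *vegt.S*, at 227 and 201 CPM in M/Z replicate 1. Over both stages, 7 of 13 tested entries were called as lower in M/Z embryos and 1 as higher (61.5% called, beside 24% of all genes). At stage 10.5 the sum over the 14 entries was 3284 CPM in M/Z replicate 1 and 2160 CPM in M/Z replicate 2, against 3665 and 4097 CPM in +/Z embryos.

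*hnf4g.L* transcripts were present in +/Z embryos at both stages and were nearly missing from M/Z embryos. At stage 9, *hnf4g.L* had 15 and 11 counts in the M/Z libraries, against 1389 and 1839 counts in the +/Z libraries. In gastrulae it had 14 and 15 counts in M/Z libraries, against 1322 and 1496 counts in +/Z libraries. All 4 M/Z libraries thus lay below all 4 +/Z libraries. *hnf4g.L* was selected for such a gap in these same libraries, so the lack of overlap is a description and no support.

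Scaled to library size, *hnf4g.L* stood at 0.358 and 0.310 CPM in M/Z embryos, against 44.8 and 70.2 CPM in +/Z embryos, at the blastula stage. In gastrulae it stood at 0.404 and 0.462 CPM in M/Z embryos, against 50.5 and 67.9 CPM in +/Z embryos. The low M/Z values were close to each other, whereas among +/Z libraries replicate 2 was 1.57 times replicate 1 at stage 9 and 1.34 times replicate 1 at stage 10.5. The stage 9 means were 0.334 ± 0.034 CPM (SD, n = 2) for M/Z and 57.5 ± 17.99 CPM (SD, n = 2) for +/Z libraries. The stage 10.5 means were 0.433 ± 0.042 CPM (SD, n = 2) for M/Z and 59.2 ± 12.3 CPM (SD, n = 2) for +/Z libraries. The M/Z mean was 0.580% of the +/Z mean at stage 9 and 0.731% at stage 10.5.

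**Figure D1:**
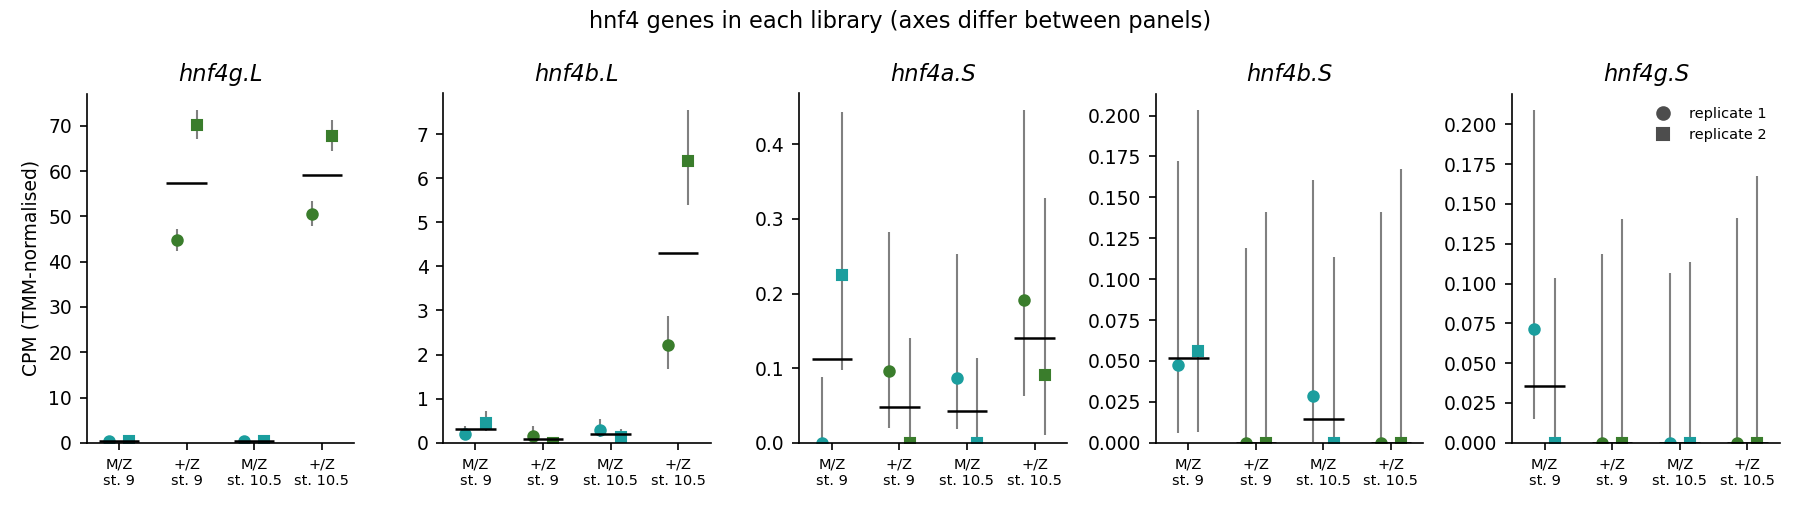
CPM of the 5 *hnf4* genes in each library, with M/Z (cyan) left of +/Z (green) at each stage, circles for replicate 1, squares for replicate 2, grey bars for exact 95% Poisson intervals and black lines for group means. The vertical axes differ between panels. *hnf4g.L* is at 44.8 CPM or more in every +/Z library and under 0.5 CPM in every M/Z library, *hnf4b.L* is raised in the 2 +/Z libraries of stage 10.5, and the other 3 genes stay under 0.3 CPM.

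On the log2 scale, the *hnf4g.L* difference between M/Z and +/Z embryos was −7.41 (SE 0.36) at stage 9, −7.08 (SE 0.35) at stage 10.5 and −7.24 (SE 0.25) over both stages. The summed +/Z counts of *hnf4g.L*, divided by effective library size, were 168 times those of M/Z embryos at stage 9 (95% interval 115 to 258) and 135 times at stage 10.5 (94.0 to 202). Ranked from the lowest fold change, *hnf4g.L* was number 108 of 25448 tested genes at stage 9, number 110 at stage 10.5 and number 90 over both stages. Its stage 9 level exceeded that of 13.5% of tested genes on the M/Z side, against 81.8% on the +/Z side. The stage 10.5 shares were 11.4% for M/Z, against 83.1% for +/Z embryos. These ranks are on counts not corrected for transcript length. The SEs, intervals and ranks of *hnf4g.L* take no account of its selection for this difference. In whole embryos, fewer cells with a transcript and less transcript per cell cannot be told apart.

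The *hnf4g.L* level did not pass a test of change between the stages in either genotype, while 32.3% of all tested genes were called for a stage change with M/Z embryos, against 46.5% with +/Z embryos. In M/Z embryos the log2 change from stage 9 to stage 10.5 was 0.36 (SE 0.42, adjusted p = 0.544). In +/Z embryos it was 0.04 (SE 0.25, adjusted p = 0.906, edgeR's quasi-likelihood test). Both +/Z means were within 1 SD of each other. The 2 M/Z stages did not overlap by library, but their values came from 11 to 15 counts and the counting intervals overlapped widely, as in replicate 1 with 0.200 to 0.590 CPM at stage 9 and 0.221 to 0.677 CPM at stage 10.5. The order of levels was therefore +/Z at both stages, then M/Z at both stages, and within a genotype the stages did not pass the test of a difference. The genotype difference of *hnf4g.L* moved by 0.32 log2 units (SE 0.49) between the stages.

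The remaining M/Z signal of *hnf4g.L* was above the floor in all 4 libraries. The lower bound of its exact 95% interval in M/Z embryos ran from 0.155 CPM (replicate 2 at stage 9) to 0.259 CPM (replicate 2 at stage 10.5). The homeolog *hnf4g.S* had 3 counts in M/Z replicate 1 at stage 9 and no counts in the other 7 libraries, so it was at the floor in both genotypes. The low *hnf4g.L* counts of M/Z embryos thus had no matching *hnf4g.S* counts. With the homeologs summed before the fit, the log2 difference remained within the range of −7.42 to −7.26 given by the alternatives other than leaving out a library at stage 9. The 8 fits that each left out 1 library gave −7.69 to −7.05 at stage 9 and −7.27 to −6.85 at stage 10.5.

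*hnf4b.L*, the HNF4 beta gene of the long chromosome set, had a different pattern: it rose to the gastrula in +/Z embryos and stayed low in M/Z embryos. At stage 9, *hnf4b.L* had 8 and 16 counts in M/Z libraries (0.191 and 0.450 CPM), against 5 and 0 counts in +/Z libraries (0.161 and 0 CPM). In gastrulae it had 10 and 4 counts in M/Z libraries (0.288 and 0.123 CPM), against 58 and 141 counts in +/Z libraries (2.22 and 6.40 CPM). Both +/Z gastrula libraries stood above the other 6 libraries, and +/Z replicate 2 was 2.89 times as high as replicate 1. At stage 9 the order was the other way round at very low counts, and the difference did not pass the test.

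The group means of *hnf4b.L* at stage 10.5 were 0.206 ± 0.117 CPM (SD, n = 2) for M/Z and 4.31 ± 2.96 CPM (SD, n = 2) for +/Z libraries, so that the M/Z mean was 4.78% of the +/Z mean. The log2 fold change was −4.35 (SE 0.88), with an adjusted p of 0.0124 by edgeR's quasi-likelihood test over all genes. *hnf4b.L* was the 1 gene called among the *hnf4* genes other than *hnf4g.L*, where 13.1% of all tested genes were called at this stage and 6.39% were called as lower. Summed over replicates, +/Z counts of *hnf4b.L* scaled to library size were 19.8 times those of M/Z embryos, with a counting interval of 11.5 to 36.9. The call was lost without M/Z replicate 2 of stage 10.5 (log2 fold change −3.86, adjusted p = 0.0683) and without +/Z replicate 2 of that stage (−3.39, adjusted p = 0.0718). The gene would not have passed the filter on low counts without the +/Z gastrula libraries, the group in which it was high, so neither this call nor its rise in +/Z embryos is independent of that filter. With no filter its log2 fold change was −4.32 (SE 0.65, adjusted p = 1.94e-09, edgeR). The p-values of that fit match a normal distribution, with no allowance for 2 replicates per group, and are not read as support. *hnf4b.L* was not tested when at least 10 counts were required in every library.

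At stage 9 the mean *hnf4b.L* level was 0.320 ± 0.184 CPM (SD, n = 2) for M/Z and 0.081 ± 0.114 CPM (SD, n = 2) for +/Z libraries. The log2 fold change of 1.84 (SE 1.08) did not pass the test (adjusted p = 0.318, edgeR), beside 11.9% of all genes called. Averaged over the 2 stages, where 24% of all genes were called, the difference was −1.26 (SE 0.76, adjusted p = 0.261), and it turned positive without +/Z replicate 1 of stage 9. The remaining +/Z library of that stage had 0 counts, so the size of that value (1.00) depends on the prior count and is no estimate. The genotype difference at stage 10.5 minus that at stage 9 was −6.18 (SE 1.36), with an unadjusted p of 0.00112 and an adjusted p of 0.182. Only 12 genes, 0.0472% of those tested, passed the adjusted test for such a change in edgeR, and 2844 had an unadjusted p under 0.05. *hnf4b.L* passed this test in DESeq2 (adjusted p = 0.00131) and in edgeR without the filter on low counts (adjusted p = 5.41e-07). The p-value without the filter makes no allowance for 2 replicates per group and is not read as support. The DESeq2 fit used the filter that *hnf4b.L* passed only through the +/Z gastrula libraries. Its p-value is therefore not independent of that filter and is not read as support either.

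Across the stages, *hnf4b.L* rose in +/Z embryos by 5.58 log2 units (SE 0.99, adjusted p = 0.00161, edgeR), where 46.5% of all genes were called and 23.3% were called as higher. The ratio of summed counts was 47.2, with a counting interval of 19.9 to 147 because the stage 9 libraries held 5 counts in all. In M/Z embryos the change was −0.60 (SE 0.92, adjusted p = 0.657). Every alternative in which *hnf4b.L* was tested kept the rise in +/Z embryos. The fit with no filter makes no allowance for 2 replicates per group. In the other fits the gene passed the filter through the +/Z gastrula libraries, where it was high. The repeated rise is therefore a description and no support. Its size was not stable. It was 4.63 without +/Z replicate 2 of stage 10.5 and 4.68 without +/Z replicate 2 of stage 9. Without +/Z replicate 1 of stage 9 the fitted value was 10.06, against a single library with 0 counts, and is no estimate. The order of its 4 group means was +/Z at stage 10.5, then M/Z at stage 9, M/Z at stage 10.5 and +/Z at stage 9, and the 2 M/Z stages did not pass the test of a difference.

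**Figure D2:**
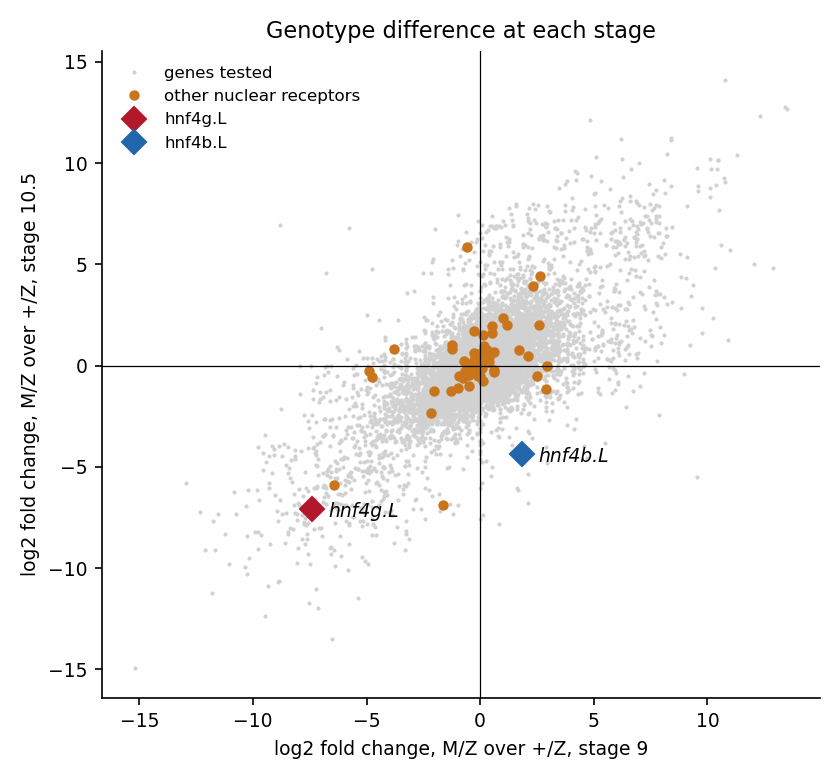
Log2 fold change of M/Z over +/Z embryos at stage 9 (horizontal axis) and stage 10.5 (vertical axis) for the 25448 genes tested (grey), 61 other nuclear receptor entries (orange), *hnf4g.L* (red) and *hnf4b.L* (blue). *hnf4g.L* lies at −7.41 and −7.08, low at both stages, and *hnf4b.L* lies at 1.84 and −4.35, which differ in sign.

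The other 3 *hnf4* genes were not detected above a few counts and did not pass the filter. *hnf4a.S*, a homeolog of the HNF4 alpha gene, had 0 and 8 counts in M/Z libraries, against 3 and 0 counts in +/Z libraries, at stage 9. At stage 10.5 *hnf4a.S* had 3 and 0 counts in M/Z libraries, against 5 and 2 counts in +/Z libraries. The counts of the 2 genotypes overlapped at both stages. The homeolog *hnf4b.S* had 2 and 2 counts in M/Z libraries at stage 9, 1 and 0 counts in M/Z libraries at stage 10.5, and none in the +/Z libraries. In a fit with no filter, the adjusted p of *hnf4a.S* was 0.856 at stage 9 and 0.719 at stage 10.5, and that of *hnf4b.S* was 0.67 and 0.792. Differences between M/Z and +/Z embryos in these 3 genes were not detectable at this depth.

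The make-up of the 5 listed *hnf4* genes, with no *hnf4a.L* among them, followed from these counts. The 5 genes together had 28 and 37 counts in M/Z libraries, against 1397 and 1839 counts in +/Z libraries, before gastrulation. In gastrulae they had 28 and 19 counts in M/Z libraries, against 1385 and 1639 counts in +/Z libraries. *hnf4g.L* supplied 99.4% and 100% of the *hnf4* counts in +/Z libraries at stage 9, and 95.5% (Wilson 95% interval 94.2 to 96.4) and 91.3% (89.8 to 92.5) at stage 10.5. In M/Z libraries its share was 53.6% (35.8 to 70.5) and 29.7% (17.5 to 45.8) at stage 9, and 50% (32.6 to 67.4) and 78.9% (56.7 to 91.5) at stage 10.5. Shares of counts also depend on transcript length, which was not used here. The 4 genes other than *hnf4g.L* summed to 13 and 26 counts in M/Z libraries, against 8 and 0 counts in +/Z libraries, at stage 9. Their sum in gastrulae was 14 and 4 counts for M/Z, against 63 and 143 counts for +/Z. At stage 10.5 the sum was thus lower in M/Z embryos than in +/Z embryos, as for *hnf4g.L* itself, and nearly all of it was *hnf4b.L*.

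Transcription factors of families that work with HNF4 in the mammalian liver and gut were compared with *hnf4b.L*. They are FOXA, GATA4 to GATA6, ONECUT, PROX1, CDX and C/EBP genes, and *nr1h4.L*. Many of them also begin to be expressed in the early endoderm. A family member, such as *foxa4.L* or *foxa4.S*, is not thereby a known partner of HNF4 in mammals. The name partner factors stands below for this list only. The nuclear receptor gene *nr1h4.L* is also counted among the other nuclear receptors below. Of 31 entries, 24 were tested, and 19 rose and 3 fell from stage 9 to stage 10.5 in +/Z embryos, a share of 91.7% beside 46.5% of all genes. Between genotypes at stage 10.5, 4 of the 24 were lower in M/Z embryos, 2 were higher and 18 did not pass, and the share called was 25% beside 13.1% of all genes. The median log2 fold change of the 24 was −0.99, beside 0.02 over all genes tested. *gata5.S*, a GATA factor of the endoderm, had 6.83 and 3.08 CPM in M/Z embryos, against 22.3 and 18.3 CPM in +/Z embryos (adjusted p = 0.01). *foxa1.L*, *foxa4.S* and *gata4.S* were the other 3 lower genes, and *prox1.S* and *cebpb.S* were higher. *prox1.S* passed the filter on low counts only through the M/Z libraries, so its calls at either stage are not independent of that filter. The count of 6 calls became 16 without M/Z replicate 1 of stage 10.5 and 2 without M/Z replicate 2 of that stage.

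As a description, the levels in M/Z gastrulae were also given as a percentage of the +/Z level. Among the 19 factors that rose in +/Z embryos, the M/Z mean at stage 10.5 was between 24.4% and 104% of the +/Z mean, with a median of 46.4%, and it was under 100% for 18. The 19 were selected on their rise in +/Z embryos, so the +/Z gastrula level served both in the selection and as the denominator, which favours low percentages, and *hnf4b.L* passed the filter through the same libraries. The 2 factors called as higher in M/Z gastrulae, *prox1.S* and *cebpb.S*, were not among the 19. *hnf4b.L* stood at 4.78%, with 6.69% in M/Z replicate 1 and 2.86% in replicate 2. The difference between *hnf4b.L* and these factors was not tested. M/Z replicate 2 was below replicate 1 for *hnf4b.L* and for all 19 factors, and it was also the library with the lower sum of embryo stage genes. Among +/Z libraries of stage 10.5, replicate 2 was below replicate 1 for 17 of the 19 factors and above it for *hnf4b.L*. These counts of factors have no matching share over all genes that rose in +/Z embryos beside them. Nothing particular to the partner factors can therefore be read from the counts. The part of developmental progress in the *hnf4b.L* difference was not tested.

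**Figure D3:**
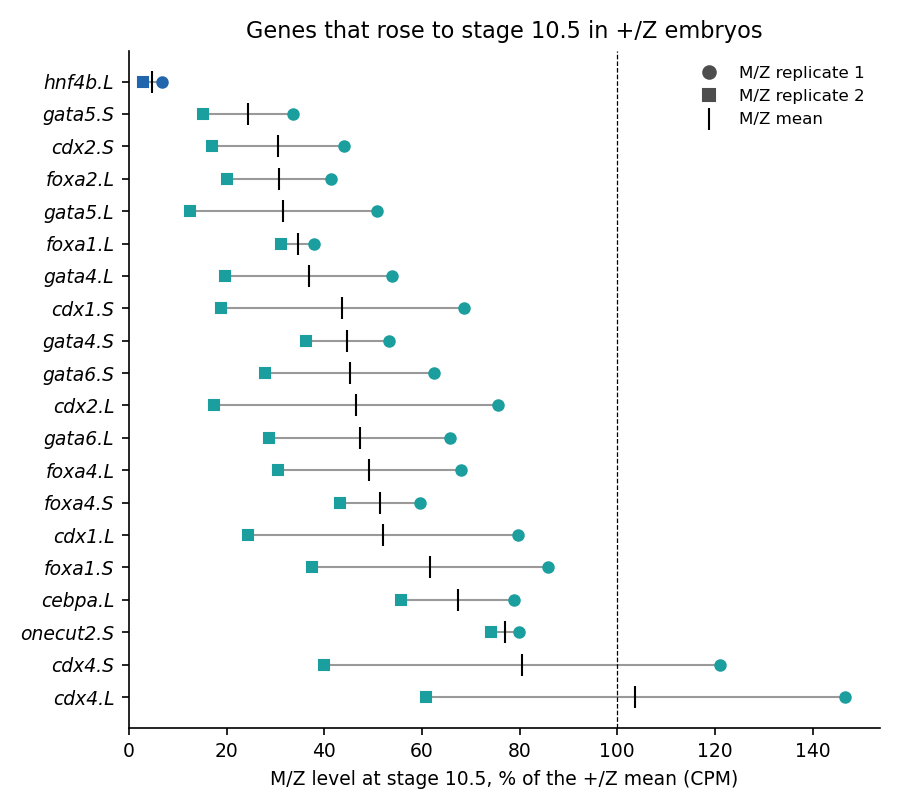
Level in M/Z embryos at stage 10.5 as a percentage of the +/Z mean of CPM. Shown are *hnf4b.L* (blue) and the 19 listed factors of HNF4 partner families that rose from stage 9 to stage 10.5 in +/Z embryos (cyan). Circles are M/Z replicate 1, squares M/Z replicate 2 and ticks their mean, and the dashed line marks 100%. *hnf4b.L* lies at 4.78%, below all 19 factors, whose means run from 24.4% to 104%; the 19 were selected on a rise in +/Z embryos, which favours low percentages.

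At stage 9, before *hnf4b.L* had risen, the partner factors showed no common direction. Among the 24, 3 were higher in M/Z blastulae (*prox1.S*, *cebpa.L* and *cebpa.S*) and 4 were lower (*gata6.S*, *foxa4.S*, *foxa4.L* and *cdx1.S*), a share of 29.2% beside 11.9% of all genes. Their median log2 fold change was −0.15, beside 0 over all genes. The median was −0.04 when genes with no counts in a group were placed at the bound set by the floor. The homeologs *gata6.L* and *cdx1.L* were not called at this stage. The 7 calls became 4 and 2 without M/Z replicates 1 and 2 of stage 9, and 3 without either +/Z replicate of that stage.

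Coregulators that nuclear receptors such as HNF4 recruit were called at shares near the 11.9% and 13.1% of all genes. The 29 entries tested held 1 higher and 2 lower calls for M/Z blastulae (10.3%), and 2 higher and 2 lower calls for M/Z gastrulae (13.8%). They include *src.L* and *src.S*, genes of the Src kinase rather than of a coregulator, and neither was called at either stage. *ncoa1.L*, a coactivator gene, was at −3.04 log2 units at stage 9 (adjusted p = 0.00129) and at −1.65 at stage 10.5 (adjusted p = 0.0314). *ppargc1b.S*, a coactivator gene of the PGC-1 family, was higher at both stages, by 1.53 and 2.23. Its homeolog LOC108710955, named *ppargc1b.L* in RefSeq, was not called, at 0.65 log2 units at stage 9 and 1.46 at stage 10.5. The 3 calls at stage 9 became 1 without any 1 of the 4 stage 9 libraries. The 4 calls at stage 10.5 became 8 without M/Z replicate 1 and 0 without M/Z replicate 2 of that stage, and 1 without +/Z replicate 2 of that stage or any 1 stage 9 library.

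Genes listed as HNF4 targets in mammalian liver or gut were called in both directions. The list was written by symbol from general knowledge, and whether each member is a target was not tested. Of 70 entries, 29 were expressed enough to be tested. M/Z blastulae had 5 higher and 2 lower calls (24.1% called, beside 11.9% of all genes; median log2 fold change 0.08, beside 0), and M/Z gastrulae had 4 higher and 1 lower (17.2% called, beside 13.1%; median 0.27, beside 0.02). *pck2.S*, encoding mitochondrial PEP carboxykinase, was lower at both stages, with 99.9 and 114 CPM in M/Z embryos, against 183 and 162 CPM in +/Z embryos, at stage 9. *slc2a2.S*, a glucose transporter gene, was lower at stage 9. Its more highly expressed homeolog *slc2a2.L* was not called at stage 9 (adjusted p = 0.0993, edgeR) or at stage 10.5 (adjusted p = 0.575, edgeR). *cpt1a.L*, of fatty acid oxidation, and *ass1.S*, of the urea cycle, were higher at both stages, whereas the homeolog *cpt1a.S* was not called. *ass1.S* had 253 and 214 counts in M/Z libraries, against 1 and 1 counts in +/Z libraries, at stage 9. Leaving out 1 of the 4 stage 9 libraries left 1 call each at stage 9, and leaving out M/Z replicate 2 of stage 10.5 left 3 calls at that stage. Markers of differentiated liver were nearly missing, with a summed stage 9 level over 21 entries of 3.77 to 4.76 CPM for M/Z, against 4.87 to 5.23 CPM for +/Z libraries. Their stage 10.5 sum was 5.86 to 7.26 CPM for M/Z, against 6.73 to 8.80 CPM for +/Z libraries, and *alb.S*, *apoa1.S* and *apob.L* had no counts. Of 6 entries tested, 16.7% were called at stage 9 and 33.3% at stage 10.5, beside 11.9% and 13.1% of all genes. Among the 6, *apob.S*, *serpina1.S*, *ambp.L* and *tf.S* are also counted among the listed targets. *ahsg.L* was lower in M/Z embryos at both stages, by −3.08 and −2.93 log2 units. *fgb.L* was higher in M/Z gastrulae, with 16 and 16 counts, against 0 and 0 counts in +/Z gastrulae. *fgb.L* and *ass1.S* passed the filter on low counts only through M/Z libraries, and *ahsg.L* only through +/Z libraries. Their calls are therefore not independent of that filter.

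The other nuclear receptors, relatives of HNF4 by structure, were called in both directions. Of 81 entries, 61 were tested, and M/Z blastulae had 5 higher and 6 lower calls (18% called, beside 11.9% of all genes), and M/Z gastrulae 6 higher and 3 lower (14.8%, beside 13.1%). The glucocorticoid receptor gene *nr3c1.L* was lower at both stages, with 10.2 and 10.05 CPM in M/Z embryos, against 24.0 and 25.7 CPM in +/Z embryos, at stage 9. Its homeolog *nr3c1.S* was not called, at 0.18 log2 units at stage 9 and 0.97 at stage 10.5. *rorb.S*, of the ROR orphan receptors, had 0 and 1 counts in M/Z libraries, against 40 and 44 in +/Z libraries, at stage 9. It was not detected in M/Z gastrulae, against 3 and 8 counts in +/Z gastrulae, and was at least 5.11-fold lower there against a floor of 3 counts over the group. The retinoic acid receptor gene *rarb.S* had 0 counts in both M/Z gastrula libraries, against 8 and 14 counts in +/Z libraries. *rorb.S* and *rarb.S* passed the filter on low counts only through +/Z libraries, so their calls are not independent of that filter. *nr1h5.L*, *nr1d2.S* and *rora.L* were higher at both stages. The homeolog *nr1d2.L* went the other way, at −2.04 log2 units at stage 9 (adjusted p = 0.0338, edgeR). At stage 10.5 it was at −1.26 and was not called (adjusted p = 0.148, edgeR). The homeolog *rora.S* was not called, at 0.12 log2 units at stage 9 and −0.76 at stage 10.5. The 11 calls at stage 9 became 1 and 2 without M/Z replicates 1 and 2, and 1 and 0 without +/Z replicates 1 and 2 of that stage. At stage 10.5 the 9 calls became 4 without M/Z replicate 2 and 3 without +/Z replicate 2 of that stage.

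The genes closest to *hnf4g.L* over the 8 libraries were found by Euclidean distance in log2 CPM. The first was LOC108703076, named *col5a2.S* in RefSeq, at a distance of 1.45, with 18, 4, 17 and 11 counts in M/Z libraries, against 1695, 1265, 1909 and 1629 in +/Z libraries. It was followed by LOC108717743 (1.91), *thop1.L* (2.65) and *pkd2l1.L* (3.29). Their Pearson correlations with *hnf4g.L* were between 0.988 and 0.992. The 5 highest correlations, 0.996 to 0.998, belonged to *rflb.S*, *lgals9.L*, *adh1b.L*, *acsl6.L* and *soat1.L*. Each of these values rests on 8 libraries that fall into 2 genotypes, so it reflects mainly the step between them. *hnf4b.L* was 13.96 from *hnf4g.L*, with a correlation of 0.285.

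**Figure D4:**
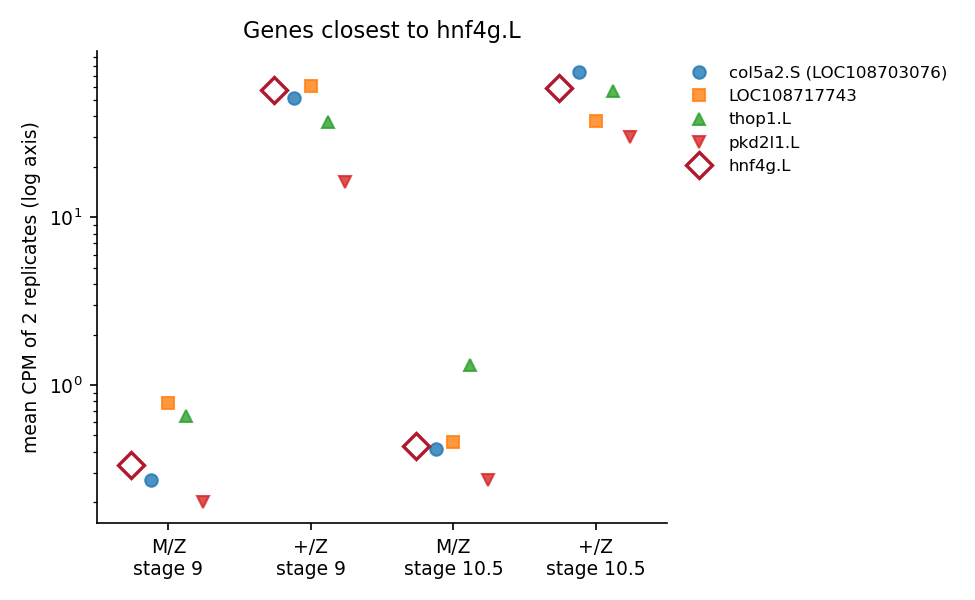
Mean CPM of 2 replicates in each group, on a log axis, for *hnf4g.L* (open red diamond) and 4 of the 5 genes closest to it, with M/Z left of +/Z at each stage. These 5 genes lie between 0.201 and 1.31 CPM for M/Z and between 16.2 and 73.4 CPM for +/Z embryos.

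Markers of other cell types were read beside the *hnf4g.L* values. The summed level of 14 follicle cell entries at stage 9 was 53.8 and 55.3 CPM for M/Z libraries, against 2.29 and 1.49 CPM for +/Z libraries, and *cyp19a1.L* had no counts. Nearly all of the M/Z sum came from *amh.S*, which had 51.5 and 52.8 CPM in M/Z libraries, against 0.193 and 0.153 CPM in +/Z libraries. In gastrulae the summed level was 47.9 and 45.5 CPM for M/Z libraries, against 2.25 and 1.81 CPM for +/Z libraries. Of 3 follicle cell entries tested, only *amh.S* was called between genotypes, at both stages (33.3%, beside 11.9% and 13.1% of all genes). *inhbb.L* and *star.L* were not called at either stage. The follicle cell sum, carried by *amh.S*, was high in the libraries where *hnf4g.L* was low. The part of follicle cells in the result was not tested. Blood cell entries at stage 9 summed to 31.8 to 33.6 CPM for M/Z, against 30.0 to 32.1 CPM for +/Z libraries, and at stage 10.5 to 11.04 to 17.5 CPM for M/Z, against 6.08 to 10.8 CPM for +/Z libraries. Most of the blood cell sum was 1 gene, *slc4a1.L*, with 32.9 and 31.4 CPM in M/Z libraries, against 29.6 and 31.7 CPM in +/Z libraries, at stage 9, and no globin entry had more than 5 counts in any library.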

How the data were processed

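Total RNA from pools of 3 whole embryos was sequenced as a stranded mRNA library. The authors ran the CSBB pipeline (3.0), which aligned read pairs by *bowtie2* to *X. laevis* assembly 9.2 and estimated gene abundance by *RSEM* (1.3.0, per the labels), and deposited estimated counts that are already whole numbers. They are not scaled to library size, and *RSEM* divides reads shared by near-identical homeologs, so a small count of a homeolog can be borrowed from its partner. Gene annotation and strand setting are not given in the sources used here.

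Groups were taken from genotype and stage in the sample labels. Counts were fitted with *edgeR* 4.0.16 in R 4.3.3 (TMM, filterByExpr, glmQLFit, glmQLFTest) over all 8 libraries, with 25448 genes tested, Benjamini-Hochberg adjustment over all of them and a threshold of 0.05. The common biological coefficient of variation was 0.229. A gene could pass the filter through a single group in which it was high. Such genes are counted in the shares called, for the lists and for all genes. SE is the absolute log2 fold change divided by the square root of F. A group of 2 libraries against 2 cannot pass 0.05 in an exact test, so none was run. The fits were also run on simulated counts, with the same dispersion for every gene and changes placed in a single group. The outcome is not given here, and such a run does not cover genes with a larger spread between replicates.

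The *hnf4* genes and all lists were chosen with earlier results of these data known. Named genes are every *hnf4* entry, called list members (first those with the smallest p), *wnt11b.L*, and the 5 genes closest to *hnf4g.L* by distance and by correlation of log2 CPM (prior count 2). A RefSeq table (version 10.1) gave names only: 12362 of 15545 LOC identifiers matched, 3698 with a symbol. It named 3 of the 5 *hnf4* entries and not *hnf4g.L*, so its position and neighbours are not given. Alternatives were other size factors, other filters, *DESeq2* 1.42.0, a replicate block, libraries of a stage or genotype alone, summed homeologs and leaving out each library. Some genes, 1 of the 5 closest to *hnf4g.L* among them, are not reported here.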

Additional observations from a re-analysis of the deposited data

Results flagged for a closer look

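For *hnf4b.L* the fitted genotype difference had opposite signs at the 2 stages. It was 1.84 (SE 1.08, adjusted p = 0.318, edgeR) at stage 9, which was not called, and −4.35 (SE 0.88) at stage 10.5. The difference between the 2 fold changes was −6.18 log2 units (SE 1.36, unadjusted p = 0.00112, adjusted p = 0.182, edgeR), so it did not pass the test over all genes. At stage 9 the gene had 8 and 16 counts in M/Z libraries, against 5 and 0 counts in +/Z libraries. Over the alternatives the adjusted p was between 5.41e-07 and 0.694. The lowest came from the fit with no filter, whose p-values make no allowance for 2 replicates per group. In the other fits the gene passed the filter through the +/Z gastrula libraries, where it was high. The change between stages is therefore not independent of that filter.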

How the results depend on the processing

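No result changed direction while called. The genotype differences of *hnf4g.L* within each stage kept their direction in every alternative run. *hnf4g.L* was selected for these differences in the same libraries, so this is a description and no support. The stage changes of *hnf4g.L* stayed uncalled, and *hnf4b.L* lost its stage 10.5 call only without replicate 2 of either genotype at that stage. The fit with no filter called 5494 genes at stage 10.5, with p-values that make no allowance for 2 replicates per group. It called 915 for the change of the genotype difference between stages, and DESeq2 called 304 for that change. These 2 settings also called 1 *hnf4* gene other than *hnf4g.L* for that change. With at least 10 counts in every library, 1894 genes were called at stage 9 and 6 for the change, and 0 such *hnf4* genes at stage 10.5 or for the +/Z stage change, since *hnf4b.L* was not tested. Fitting the libraries of a stage alone gave 7130 calls at stage 9 and 1218 at stage 10.5, and the circuit of HNF4 partner factors gave 3 calls at stage 10.5. Leaving out 1 library gave 1076 to 3762 genes at stage 9, 1520 to 5227 at stage 10.5, 3418 to 7437 over both stages, 3332 to 9263 for the M/Z stage change, 7625 to 12403 for the +/Z stage change and 0 to 732 for the change of the genotype difference. Among *hnf4* genes other than *hnf4g.L* it gave 0 to 1 at stage 10.5 and 0 to 1 for that change. The cause of these differences was not tested.

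Replicate numbers are shared by the groups, but nothing says that they mark a shared clutch, and the replicate differences of the genotypes correlated by −0.015 at stage 9 and −0.009 at stage 10.5. With the replicate block, *hnf4b.L* was at −4.23 at stage 10.5 (adjusted p = 0.02, edgeR), and 2916 genes were called at stage 9 and 3134 at stage 10.5. The partner factors, with 6 calls at stage 10.5 in the main fit, had 12 with the block and 12 with DESeq2. They had 17 with no filter and 3 with at least 10 counts in every library. Calls over all genes at stage 10.5 ran from 1218 to 5494 over the alternatives other than leaving out a library, against 3325. List counts under an alternative, or without a library, have no matching share of all genes beside them. Nothing particular to the lists can therefore be read from those counts. The M/Z stages correlated by −0.132, and a crossed pairing, chosen after seeing the data, gave 8524 calls for the M/Z stage change, against 8219.

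Scaling to library totals alone shifted the median of all genes by 0.20 at stage 10.5 and by −0.30 in the +/Z stage change. Depth limits *hnf4a.S*, *hnf4b.S* and *hnf4g.S*, which had at most 8 counts in any library.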
